A study of Mus musculus with 6 samples.

Results

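The genes described here are 35 mouse nuclear receptor genes outside the oestrogen-related receptor (ERR) subfamily, in quadriceps muscle with and without an ERRγ transgene. They were found as all probe sets, other than array controls, whose platform annotation names a single gene that is among the 35. This gave 95 of 45037 probe sets and 34 genes, since Nr1h2, the ubiquitous oxysterol receptor LXRβ, was matched to none. Of the 95, 68 probe sets of 29 genes had a mean signal above the filter of 37.7 units and were tested. Nuclear receptors are transcription factors that bind DNA through zinc fingers and, in most members, change their activity when a small lipophilic ligand such as a fatty acid, a retinoid, a steroid or a thyroid hormone occupies the ligand pocket. Many bind DNA as a heterodimer with a retinoid X receptor (RXR), so that the RXR genes serve a large part of the family. In skeletal muscle, members of the family control fuel choice, contractile isoforms, the circadian clock and the response to glucocorticoids.

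The study compared quadriceps, a large thigh muscle, of 3 wild-type mice and 3 mice whose genotype is given as hSkeletal Actin -ERRg transgenic, that is, carrying ERRγ under a skeletal actin promoter, which is active in muscle fibres. All were males of strain C57/BL6 at 8 weeks of age, and the titles call the arrays biological replicates. How many founder lines the transgenic animals came from is not given in the sources used here. Esrrg, which encodes ERRγ, had signals of 71.6, 61 and 24.1 in the wild type and 14427, 13808 and 12697 with the transgene at its brightest probe set. Its other probe sets went from 105 ± 18.2 to 145 ± 38.5 and from 38.5 ± 1.6 to 53.3 ± 4.56 (SD, n = 3) and did not pass. The 8 markers of skeletal muscle fibres summed to between 115900.2 and 147604 units in wild-type and between 133348 and 152425 in transgenic muscle. Singly, 1 of the 8 rose, 0 fell and 7 did not pass. In 1 every transgenic array lay above every wild-type array, in 1 below, and in 6 the genotypes overlapped.

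Receptors of this family recognise variants of the core site AGGTCA, and ERRγ and the NR4A receptors bind it as monomers when it is extended at its 5′ side. RefSeq (GRCm38.p6) windows from 250 bases before to 50 bases after a transcription start were matched for 33 of the 35 genes, 50 windows in all. Thra and Nr3c1 had no window. The letters AGGTCA stood on either strand in 11 of the 50 windows (22.0%), against 16.3% of all 32851 windows. The extended form AAGGTCA, which contains the core, was found in 3 (6.0%), against 4.72% of all windows, and AAAGGTCA, an extension of that form, in 2 (4.0%), against 1.51%. The form TNAAGGTCA, the ERR response element, was found in 0 of the 50, against 1.28% of all windows, and a direct repeat of AGGTCA with 1 base between its copies in 0, against 0.0396%. The 2 windows with AAAGGTCA belonged to Rxrg and Rxra, both lower with the transgene. The window at the other start of each lacked it, as did those of Rora and Nr2f6, which also fell. Nr6a1, the other gene with AAGGTCA, did not pass. Whether these letters go with a direction of change was not tested. The 250 bases before the start are shown for Rxrg and Rxra, at the second of the 2 starts of each, with AAAGGTCA in capitals. They are followed by Ppara and Rora, whose differences were each seen with several probe sets and whose 250 bases hold 0 copies of AGGTCA on either strand. All run 5′ to 3′ on the + strand, at chr1:167618015-167618264, chr2:27709042-27709291, chr15:85735526-85735775 and chr9:68653536-68653785. A match of letters is a description and shows neither binding nor its absence.
Rxrg: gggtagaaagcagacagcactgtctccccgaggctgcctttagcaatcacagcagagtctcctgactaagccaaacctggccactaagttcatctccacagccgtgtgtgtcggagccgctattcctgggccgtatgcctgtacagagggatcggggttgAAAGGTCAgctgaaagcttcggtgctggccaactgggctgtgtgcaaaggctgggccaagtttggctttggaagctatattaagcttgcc
Rxra: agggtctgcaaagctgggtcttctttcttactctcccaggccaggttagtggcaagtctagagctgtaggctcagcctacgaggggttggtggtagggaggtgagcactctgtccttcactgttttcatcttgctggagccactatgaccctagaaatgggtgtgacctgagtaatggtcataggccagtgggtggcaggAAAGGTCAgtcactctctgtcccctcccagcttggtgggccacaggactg
Ppara: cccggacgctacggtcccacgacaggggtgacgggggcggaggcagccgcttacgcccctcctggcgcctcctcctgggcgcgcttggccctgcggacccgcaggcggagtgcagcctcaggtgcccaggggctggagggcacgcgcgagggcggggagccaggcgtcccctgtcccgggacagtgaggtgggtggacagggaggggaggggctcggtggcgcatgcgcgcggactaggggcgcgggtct
Rora: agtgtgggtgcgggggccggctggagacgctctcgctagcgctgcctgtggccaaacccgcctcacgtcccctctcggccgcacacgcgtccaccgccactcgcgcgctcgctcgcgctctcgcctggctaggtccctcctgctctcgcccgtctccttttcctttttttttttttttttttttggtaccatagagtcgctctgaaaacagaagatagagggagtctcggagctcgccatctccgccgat
The matching letters lay 90 to 83 bases before the Rxrg start and 50 to 43 bases before the Rxra start, and the Rxra window holds a further AGGTCA on the reverse strand. These windows had a G+C content of 55.2% each, and those of Ppara and Rora had 76.4% and 61.2%.

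Of the 29 nuclear receptor genes tested, 4 rose in transgenic muscle (Ppara, Rxrb, Vdr and Nr2f2), 5 fell (Rxra, Rxrg, Rora, Nr3c1 and Nr2f6) and 20 did not pass. Each gene was read from its brightest probe set, on the scale log2(signal + 16), with the limma test across all probe sets and a Benjamini-Hochberg adjusted p under 0.05. The 9 called make up 31.0% of the receptors tested, where 13.4% of all 12537 genes tested were called. The members were chosen with earlier results of these data known. By direction, 13.8% rose and 17.2% fell, against 7.64% and 5.75% of all genes. Signals of the genotypes did not overlap for 13 of the 29 (44.8%), against 33.2% of all genes. The transgenic arrays were the higher ones in 8 of these (27.6% of 29, against 18.6% of all genes) and the lower ones in 5 (17.2%, against 14.7%). Vdr, Rorb and Nr2f1 passed the filter on low signals only through the transgenic arrays, so that a direction was partly fixed for them. Among the 26 receptors with both genotype means above the filter, a choice made after seeing the data, 3 rose (11.5%, against 7.79% of all such genes) and 5 fell (19.2%, against 5.87%). The transgenic arrays were the higher ones without overlap in 6 of the 26 (23.1%, against 18.4%). By probe set, 16 of 68 were called (23.5%), against 11.5% of all probe sets tested. Of these 6 rose (8.82%, against 6.37%) and 10 fell (14.7%, against 5.16%). The genotypes did not overlap at 28 of the 68 (41.2%, against 30.9%), with the transgenic arrays higher at 13 (19.1%, against 17.8%) and lower at 15 (22.1%, against 13.1%). The median log2 difference of the 29 was 0.10, against 0.03 for all genes. It turned to -0.050 when each array was scaled to a common median, a scaling that moved the median of all genes to -0.11. The count of 9 was 4 without the intensity trend, where 6.56% of all genes were called. On leaving out an array it was 3 (wild-type 1), 4 (wild-type 2), 7 (wild-type 3), 5 (transgenic 1), 5 (transgenic 2) or 4 (transgenic 3). The sign of none of the 9 changed under the 17 alternatives, of which 15 gave a value for Vdr.

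**Figure D1:**
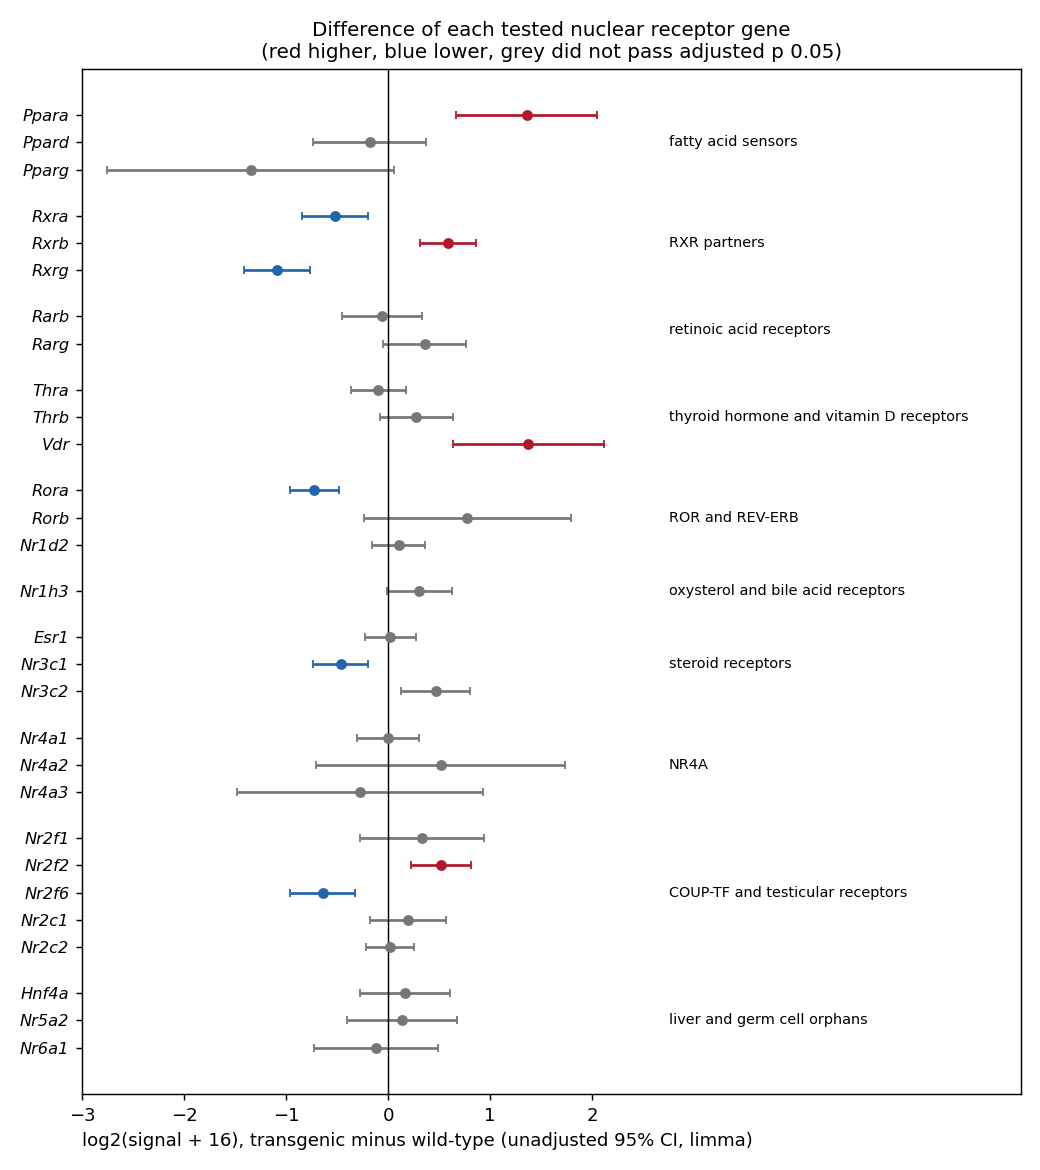
Log2 difference (transgenic minus wild-type, log2(signal + 16)) of each of the 29 tested nuclear receptor genes at its brightest probe set, grouped by role, with unadjusted 95% confidence intervals from limma. The 4 red genes rose and the 5 blue genes fell at an adjusted p under 0.05, and the 20 grey genes did not pass.

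The RXR genes encode the shared heterodimer partners of the thyroid hormone, vitamin D, retinoic acid, PPAR and LXR receptors, and all 3 changed, 1 upward and 2 downward. Rxrg, the isoform most restricted to muscle and brain, had signals of 669, 543 and 528 in the wild type and 268, 226 and 299 with the transgene. Every transgenic array lay below every wild-type array. The means were 580.2 ± 77.6 and 264 ± 36.8 (SD, n = 3), 2.19-fold lower with the transgene, and the log2 difference was -1.09 (SE 0.15, limma adjusted p = 0.00103). Rxra, the most widely expressed isoform, had 908, 855 and 627 in the wild type and 567.5, 518 and 548 with the transgene. The groups did not overlap, and wild-type 3 was the wild-type array nearest to the transgenic ones. Rxra fell by 0.52 (SE 0.14), with a limma adjusted p of 0.0424 that lay close to the threshold. Its second tested probe set gave 210, 216 and 214 in the wild type and 173, 143 and 153 with the transgene, a log2 difference of -0.42 that did not pass (limma adjusted p = 0.0845). Rxrb, a ubiquitous isoform, had 695, 701 and 763 in the wild type and 1277, 1039 and 973 with the transgene. It rose 1.52-fold, with a log2 difference of 0.59 (SE 0.12, limma adjusted p = 0.0121).

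Within arrays, the log2 ratio of Rxrb to Rxrg was higher with the transgene by 1.68 (SE 0.22), that of Rxrb to Rxra by 1.11 (SE 0.23) and that of Rxra to Rxrg by 0.57 (SE 0.15). An exact permutation test gave p = 0.1 for each ratio, the smallest value possible with 3 arrays against 3. These ratios restate the differences of the single genes and are no further support for them. Rxrg passed under all 17 alternatives, with log2 differences of -1.23 to -0.97. The Rxra call ended with no filter (adjusted p = 0.0637), with quantile normalization (0.0595), without the intensity trend (0.121) and on leaving out any array but wild-type 3 (0.0931 to 0.168). The Rxrb call ended without the intensity trend (0.0658), without wild-type 1 (0.0555) and without transgenic 1 (0.0541).

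**Figure D2:**
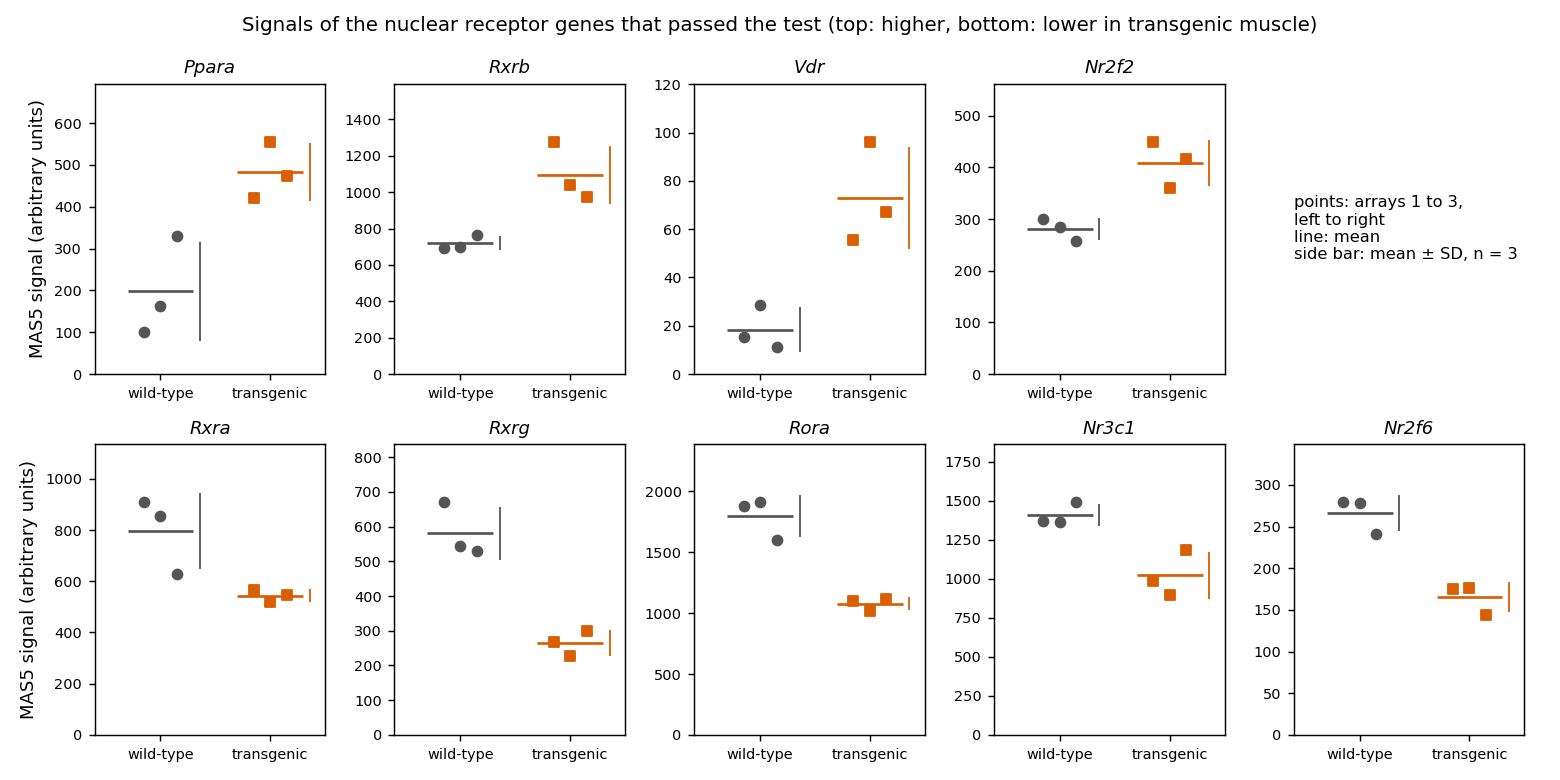
MAS5 signal (linear axes from 0, arbitrary units) of the 9 nuclear receptor genes that passed, in 3 wild-type (grey circles) and 3 transgenic (orange squares) arrays, with the mean and SD. The genotypes do not overlap in any panel, and for Rxra wild-type 3, at 627, lies nearest to the transgenic arrays.

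The peroxisome proliferator-activated receptors (PPARs) sense fatty acids, PPARα and PPARδ driving fatty acid oxidation and PPARγ driving fat cell differentiation. Ppara had signals of 100, 163 and 330 in the wild type and 420.2, 556 and 474 with the transgene. All transgenic arrays were above all wild-type arrays, among which wild-type 3 was the highest. The means were 198 ± 119 and 483 ± 68.2 (SD, n = 3), a 2.44-fold rise, and the log2 difference was 1.36 (SE 0.31, limma adjusted p = 0.0184). Its other probe sets rose by 1.24 and 1.33 (limma adjusted p = 0.0148 and 0.00327), and in both every transgenic array was above every wild-type array. Without wild-type 3 the difference of the brightest probe set was 1.78. The call ended without the intensity trend (adjusted p = 0.0806) and on leaving out wild-type 2 (0.0596), transgenic 2 (0.0764) or transgenic 3 (0.0575). Wild-type 3 was also the array with the highest adipocyte markers, given with Pparg, and their part in the Ppara values was not tested. These are bulk samples, in which fewer cells of a type and less RNA per cell cannot be told apart.

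Ppard, the isoform with a broad role in muscle oxidation, had 111, 121 and 72.6 in the wild type and 59.6, 109 and 96.3 with the transgene. The ranges overlapped and the log2 difference of -0.18 (95% interval -0.73 to 0.37) did not pass. Pparg had 57.9, 85.3 and 417 in the wild type and 13.2, 106 and 38.9 with the transgene. A single array, wild-type 3, stood far above the rest, and the difference of -1.35 (95% interval -2.75 to 0.06) did not pass (limma adjusted p = 0.213). It was -0.57 without wild-type 3 (adjusted p = 0.545). The 4 adipocyte markers with a probe set, Adipoq, Retn, Cidec and Lep, were also highest on wild-type 3 and, within the transgenic group, on transgenic 2. Their summed signal was 4074, 3097 and 11532 in the wild type and 2862, 5499.6 and 1884 with the transgene, 0 of 4 passed, and none was listed at 0. The part of fat tissue in the Pparg values was not tested.

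**Figure D3:**
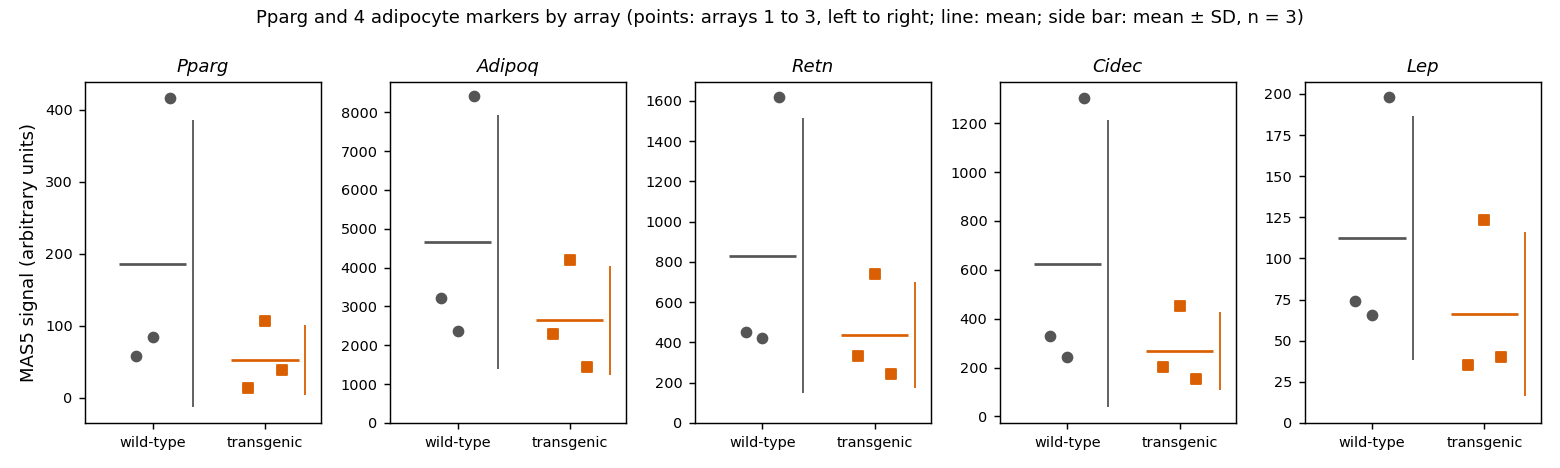
MAS5 signal of Pparg and of 4 adipocyte markers on each array (wild-type grey, transgenic orange, arrays 1 to 3 from left to right, mean and SD). In all 5 panels wild-type 3 is the highest array and transgenic 2 the highest of the transgenic arrays.

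Vdr, the vitamin D receptor, had signals of 15.5, 28.8 and 11.1 in the wild type and 55.6, 96.2 and 67 with the transgene. The lowest transgenic array was above the highest wild-type array. The log2 difference was 1.37 (SE 0.33, limma adjusted p = 0.0238). The mean signals were 18.5 ± 9.22 and 72.9 ± 20.9 (SD, n = 3). Vdr passed the filter through the transgenic arrays alone, its wild-type mean of 18.5 lying below 37.7 units. A second Vdr probe set fell below the filter and was not part of the test, and it had 4, 2.6 and 3.3 in the wild type and 67.3, 42.1 and 35.8 with the transgene. With no filter both Vdr probe sets passed, at 1.37 and 1.71 (limma adjusted p = 0.0454 and 0.00871). The call ended without wild-type 1 (adjusted p = 0.0685) and without transgenic 3 (0.0668). Without transgenic 2 the probe set was below the filter, as it was with the filter at the 60th percentile. Whether so low a wild-type signal is above background is not given by these files.

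The thyroid hormone receptors mediate the hormone's effect on fibre type and metabolic rate. Thra, the main isoform of skeletal muscle, had 436, 478 and 498 in the wild type and 486, 415 and 419 with the transgene. Its 3 probe sets gave log2 differences of -0.10, -0.07 and 0.01, all with overlapping groups, and the 95% interval of the brightest was -0.37 to 0.17. Thrb had 105, 92 and 112 in the wild type and 130.4, 133 and 120.1 with the transgene. The groups did not overlap, but the difference of 0.28 (95% interval -0.08 to 0.64) did not pass. Among the retinoic acid receptors, Rarb gave 166 ± 29.9 and 158 ± 26.5 and Rarg 202 ± 38.5 and 263 ± 51.2 (SD, n = 3), both with overlapping groups and neither passing (limma adjusted p = 0.874 and 0.252). Rara was below the filter, with no signal above 38.4.

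RORα and REV-ERBβ bind the same response elements and act there in opposite senses, RORα as an activator and REV-ERBβ (Nr1d2) as a repressor of clock and lipid genes. Rora had signals of 1884, 1909.5 and 1597 in the wild type and 1101, 1016 and 1118 with the transgene. The groups were far apart, and the means of 1797 ± 173 and 1078 ± 54.5 (SD, n = 3) differed 1.67-fold. Rora fell by 0.72 (SE 0.11, limma adjusted p = 0.00184), and it passed under all 17 alternatives, at -0.88 to -0.53. Of its 9 probe sets, all tested, 5 fell, 0 rose and 4 did not pass, and 6 had every transgenic array below every wild-type array. The log2 differences ran from -0.92 to 0.09, and the only positive one came from a probe set whose signals were between 84.3 and 144.

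Nr1d2 had 3548.5, 4728 and 4567 in the wild type and 4562, 4476 and 4647 with the transgene. The groups overlapped, with wild-type 1 lowest, and the difference was 0.10 (95% interval -0.15 to 0.36). Its dimmer probe set gave 286 ± 41.5 and 365 ± 11 (SD, n = 3), with groups that did not overlap and a difference of 0.35 that did not pass (limma adjusted p = 0.140). Rorb, a neural isoform, was at 52.6, 4.8 and 54.3 in the wild type and 58.3, 48.4 and 89.3 with the transgene, and did not pass. Rorb and Nr2f1 also passed the filter through the transgenic arrays alone, with wild-type means of 37.2 and 36.9.

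**Figure D4:**
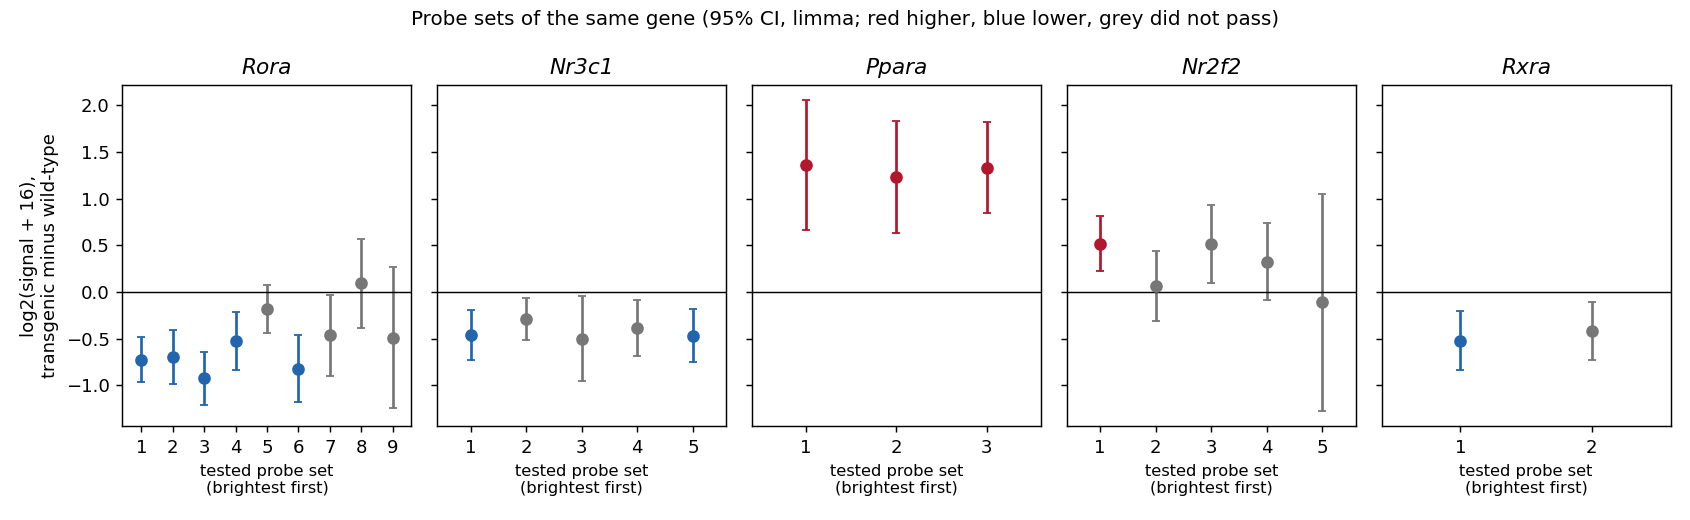
Log2 differences (transgenic minus wild-type, log2(signal + 16), unadjusted 95% intervals from limma) of every tested probe set of Rora, Nr3c1, Ppara, Nr2f2 and Rxra, brightest first. The 3 Ppara probe sets lie above 0 and the 5 of Nr3c1 below it, whereas those of Rora and Nr2f2 each include 1 on the other side of 0.

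Among the steroid receptors, Nr3c1, the glucocorticoid receptor, fell. Its signals were 1371, 1364 and 1489.9 in the wild type and 986, 895 and 1186 with the transgene. The groups did not overlap, and the difference was -0.46 (SE 0.12, limma adjusted p = 0.0326), or 1.38-fold. Of its 5 tested probe sets, 2 fell and 3 did not pass, and all 5 had negative differences, from -0.50 to -0.29. The call ended without the intensity trend (adjusted p = 0.115) and on leaving out any array but transgenic 3 (0.0622 to 0.109). On the same arrays the summed markers of fibroblasts were 31823 to 37054 in the wild type and 30109 to 30331 with the transgene, with 1 of 7 lower and 0 higher. Those of satellite cells, the muscle stem cells, were 298 to 366 and 218 to 254, with 0 of 3 called. Those of leukocytes, 1 of 10 lower and 0 higher, were 3460 to 3947 and 2549 to 3145. Their part in the falls of Nr3c1, Rora and Rxra, all broadly expressed, was not tested. Nr3c2, the mineralocorticoid receptor, which binds the same hormones with high affinity, had 136, 121 and 119 in the wild type and 162.5, 201 and 175 with the transgene. The groups did not overlap, in the opposite direction to Nr3c1, but the difference of 0.47 (SE 0.15) did not pass (limma adjusted p = 0.0783). Of the 17 alternatives, the Nr3c2 difference passed only in the fit on averaged probe sets of each gene (limma adjusted p = 0.0424). Nr3c2 has only 1 probe set, so nothing was averaged for it. Its difference there was still 0.47, and only the SE (0.13) and the adjustment changed. Esr1, the oestrogen receptor α, had 744, 735.5 and 829 in the wild type and 846, 788 and 712 with the transgene. The groups overlapped at all 3 of its probe sets, and the difference at the brightest was 0.02 (95% interval -0.23 to 0.27). Pgr, the progesterone receptor, was below the filter at each of its 3 probe sets, with no signal above 44.1.

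The oxysterol and bile acid receptors were mostly dim. Nr1h3, the oxysterol receptor LXRα found in macrophages and fat, had 203, 167 and 194 in the wild type and 217, 231 and 260.2 with the transgene. The groups did not overlap, and the difference of 0.31 (95% interval -0.01 to 0.62) did not pass (limma adjusted p = 0.211). The part of the leukocyte markers, whose sums are given with Nr3c1, in the Nr1h3 values was not tested. Nr1h4 (the bile acid receptor FXR), Nr1i3 (the xenobiotic receptor CAR) and Nr0b2 (the corepressing orphan SHP), known chiefly from liver, were below the filter, with no signal above 55, 6 and 33.9 respectively.

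The COUP transcription factors are orphan receptors that often compete with other family members for DNA. Nr2f2 (COUP-TFII), a regulator of venous endothelium and of muscle progenitors, had 299, 284 and 257 in the wild type and 449.8, 361 and 417 with the transgene. The groups did not overlap, and Nr2f2 rose 1.46-fold, with a log2 difference of 0.52 (SE 0.13, limma adjusted p = 0.0305). Its other 4 tested probe sets did not pass, at 0.06, 0.52, 0.33 and -0.11. The call ended with arrays scaled to a common median (difference 0.37, adjusted p = 0.114), without the intensity trend (0.0805), with the mean of its probe sets (difference 0.26, adjusted p = 0.399) and on leaving out any array but transgenic 2 (0.0635 to 0.115). In the same arrays 8 of 11 endothelial markers rose and 0 fell. Their summed signal went from between 3338 and 3815 to between 5856 and 6463, and none was listed at 0. Of 8 pericyte and smooth muscle markers 2 rose and 0 fell, with sums of 7832 to 9472 and 12452 to 14256. The part of either in the Nr2f2 difference was not tested.

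Nr2f6 (EAR2), a repressive relative of the COUP factors, had 279, 279 and 241 in the wild type and 175.5, 176.5 and 144 with the transgene. No arrays overlapped, and it fell by 0.64 (SE 0.14, limma adjusted p = 0.0170). Its second probe set had 126, 142 and 152 in the wild type and 119.9, 65.8 and 16.9 with the transgene, a wide spread, and its difference of -1.12 did not pass (limma adjusted p = 0.109). The call of the brighter probe set ended without wild-type 1 (adjusted p = 0.0736), wild-type 2 (0.0707) or transgenic 3 (0.0556). Nr2f1 (COUP-TFI) had 35.5, 31.2 and 44 in the wild type and 57.5, 46.9 and 47.3 with the transgene. Its groups did not overlap, yet its difference of 0.33 did not pass (limma adjusted p = 0.489). The testicular receptors, orphans that bind direct repeats of the core site, gave 148 ± 27.8 and 170.2 ± 11.6 for Nr2c1 and 747 ± 48.7 and 758 ± 27 for Nr2c2 (SD, n = 3). Neither passed, and the interval for Nr2c2 was -0.21 to 0.26. A second Nr2c1 probe set had 89.9, 106 and 88.4 in the wild type and 129.6, 153 and 135.4 with the transgene, with no overlap, and its difference of 0.49 did not pass (limma adjusted p = 0.0861). The other tested Nr2c1 probe sets gave -0.14 and -0.26, with overlapping groups.

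The NR4A receptors are ligand-independent immediate early genes that respond to contraction and adrenergic signals in muscle. Nr4a1 (NUR77) had 2271, 3120 and 2110 in the wild type and 2449, 2484 and 2473 with the transgene. The transgenic arrays lay inside the wild-type range, and the log2 difference was 0.00 (95% interval -0.30 to 0.31). Nr4a2 (NURR1) had 156, 89.8 and 17.7 in the wild type and 164, 144 and 46.1 with the transgene. Nr4a3 (NOR1) had 54.2, 21.6 and 128 in the wild type and 69.8, 75.8 and 11.2 with the transgene. Both varied several-fold within a genotype and did not pass at any tested probe set. A list of other immediate early genes was likewise chosen with earlier results of these data known. Of its 12 genes tested, 3 rose and 0 fell, where 13.4% of all genes were called. They were Jun (0.58, SE 0.13) and Atf3 (0.99, SE 0.26), both transcription factors of the AP-1 and ATF families, and Btg2 (0.73, SE 0.20), an antiproliferative factor. The count was 1 after median scaling, with no filter and without the intensity trend, 0 on leaving out wild-type 1 or transgenic 1, and 1 on leaving out transgenic 2. Hnf4a, Nr5a2 and Nr6a1, orphans known from liver, pancreas and germ cells, had mean signals of 68.4 to 102 in either genotype at their brightest probe sets. Only 1 of 4 Hnf4a, 2 of 4 Nr5a2 and 4 of 5 Nr6a1 probe sets were above the filter. All of their tested probe sets overlapped between the genotypes, and none passed.

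The proteins that carry receptor signals to chromatin, or supply the ligands, are given by list, each count beside the 13.4% called over all genes. These lists were chosen with earlier results of these data known. Of 16 coactivator genes tested, Med1, the Mediator subunit that contacts ligand-bound receptors, rose (0.44, SE 0.12, limma adjusted p = 0.0349), 0 fell and 15 were not called. The median of the 16 was -0.20, against 0.03 for all genes. The count of coactivators was 0 without the intensity trend or on leaving out any array but wild-type 3, and 3 without that array. It was 4 with arrays scaled to a common median and 3 with the higher filter and with array weights. Of 8 corepressor genes tested, Hr, a thyroid hormone-responsive corepressor, fell from 372 ± 90 to 176 ± 31.6 (SD, n = 3), 0 rose and 7 did not pass, with 2 called on the mean of probe sets. Of 7 tested genes of retinoid supply and breakdown, Aldh1a1, which makes retinoic acid, rose by 0.49 (SE 0.14, limma adjusted p = 0.0461), 0 fell and 6 did not pass. The median of these 7 was -0.30, opposite in sign to Aldh1a1. The count was 0 on leaving out any array but transgenic 1, without the intensity trend, with no filter and with array weights. Of 3 tested genes of thyroid hormone transport and deiodination, Slc16a10, a transporter of aromatic amino acids and thyroid hormone, fell from 333 ± 55.8 to 163 ± 41.5 (SD, n = 3), 0 rose and 2 did not pass, and the count was 0 with the mean of probe sets. Of 6 genes of steroid activation and receptor chaperones, 2 fell, 0 rose and 4 did not pass. These were Fkbp5, a cochaperone and classic glucocorticoid target (-0.75, SE 0.15), and Hsp90aa1, the inducible HSP90 (-0.45, SE 0.12), and the count was 0 without the intensity trend and 1 on leaving out any array but transgenic 3, with no filter and with quantile normalization.

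Known target genes of the receptors are given list by list, and no difference between lists was tested. The lists were chosen with earlier results of these data known, so their counts and medians are no independent evidence. Some genes stand in more than 1 list, among them Fkbp5, Hr and Ucp3. A gene named under several lists is the same result each time. Over all genes 13.4% were called, 7.64% higher and 5.75% lower. Of 15 tested genes from a PPAR target list, 9 rose, 0 fell and 6 were not called. The median over the 15 was 1.09, against 0.03 for all genes. The largest were Fabp3, a fatty acid binding protein (1.89, SE 0.15), Slc25a20, the mitochondrial carnitine carrier (1.62, SE 0.20), Acot2, a mitochondrial thioesterase (1.55, SE 0.20), and Pdk4, which restrains pyruvate oxidation (1.44, SE 0.15). Many PPAR targets are also bound by ERRs, so that the list does not belong to PPARs alone. Of 10 LXR targets, 2 fell, 0 rose and 8 did not pass. They were Srebf1, the lipogenic factor SREBP-1, from 1015 ± 165 to 336 ± 55.4, and Scd2, a desaturase, from 761 ± 78.8 to 421 ± 40.5 (SD, n = 3). In this list Fasn, Scd1 and Apoe, chosen after their values were seen, were highest on wild-type 3, the array with the highest adipocyte markers, and did not pass. The other genes of the list are not described by array here, and the part of fat tissue in the list was not tested.

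Of 15 glucocorticoid receptor targets, 3 fell, 1 rose and 11 were not called, at a median of -0.06. Fkbp5, Glul, glutamine synthetase (-0.76, SE 0.20), and Tsc22d3, the glucocorticoid-induced leucine zipper (-0.61, SE 0.11), fell, and Klf15, a regulator of amino acid and lipid use, rose (0.71, SE 0.20) although its groups overlapped. The count was 0 without the intensity trend and 2 with no filter and on leaving out wild-type 3 or transgenic 2. Of 10 thyroid hormone targets, 3 fell, 1 rose and 6 did not pass. Me1, malic enzyme (-1.25, SE 0.17), Gpd2, the mitochondrial glycerophosphate dehydrogenase (-1.18, SE 0.09), and Hr fell, and Ucp3, a mitochondrial uncoupling protein, rose (1.26, SE 0.21). Of 12 tested clock genes under ROR and REV-ERB control or in the same loops, 2 fell, 0 rose and 10 did not pass. Bhlhe41 fell by 0.88 (SE 0.22) and Bhlhe40 by 0.54 (SE 0.12), both repressors of the clock, and the count was 0 without the intensity trend and on leaving out transgenic 1. It was 1 with no filter and on leaving out any array but transgenic 1 or wild-type 3, and 3 with array weights. Of 7 metabolic genes reported as NR4A targets in muscle, Ucp3 and Fbp2, muscle fructose bisphosphatase, rose, Phkg1, a phosphorylase kinase subunit, fell, and 4 did not pass. With quantile normalization 5 passed.

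**Figure D5:**
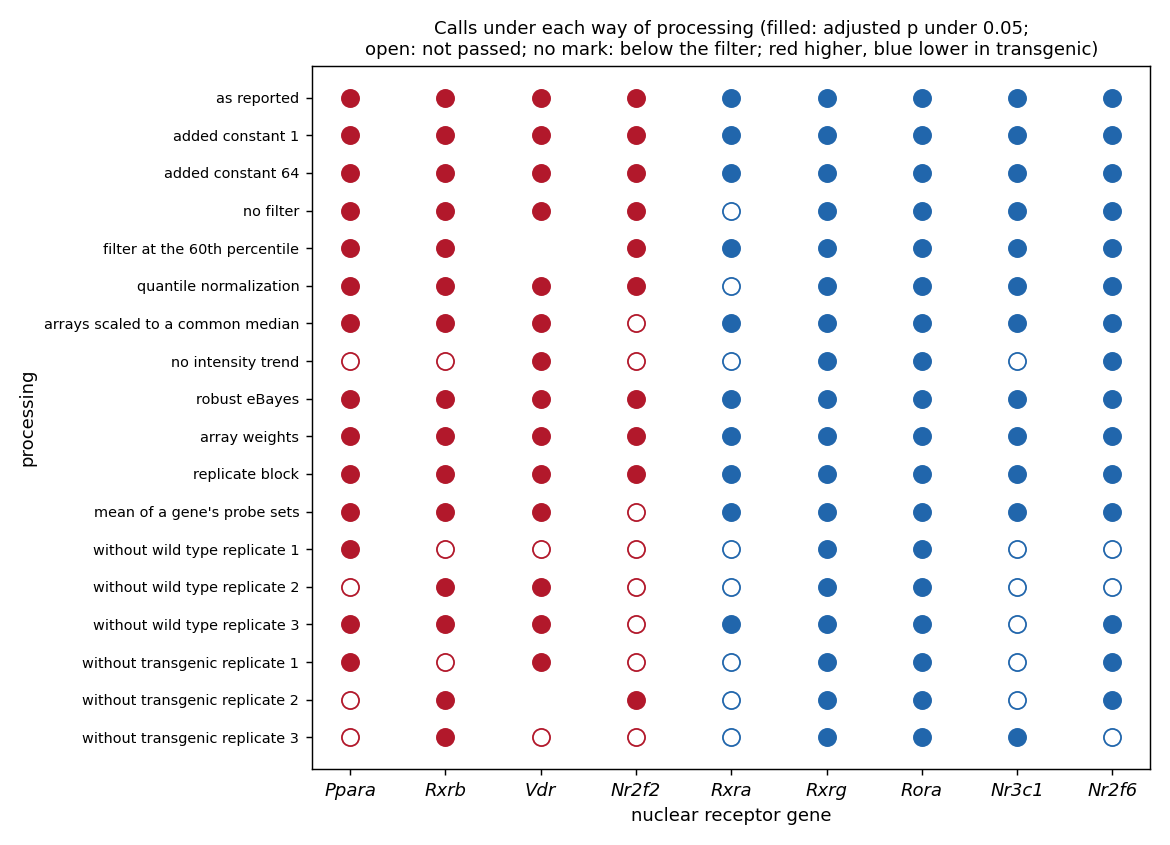
Calls of the 9 nuclear receptor genes (columns) under the reported processing and 17 alternatives (rows), where filled marks have an adjusted p under 0.05, open marks did not pass and a missing mark is a probe set below the filter. Rxrg and Rora are filled in every row, and the colour of direction, red higher and blue lower, never changes within a column.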

How the data were processed

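RNA was isolated with Trizol and hybridised as biotin-labelled cRNA to Affymetrix arrays, 1 per animal, per the labels' protocols. The authors deposited linear signal intensities made with MAS5, per the submitters' processing notes, and no MAS5 version is given. Every array has nearly the same trimmed mean. The median signals were 56.1, 52.1 and 53.1 in the wild type and 61.8, 60.6 and 57 with the transgene. Every transgenic median thus lay above every wild-type median, and scaling to a common median was among the alternatives. Gene names came from the platform annotation, and the 34 matched genes were all found in RefSeq by Entrez identifier with 0 changed symbols.

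No further normalization was applied, and log2(signal + 16) was analysed. After 64 control probe sets were left out, 27018 of 45037 probe sets had a mean above the 40th percentile. These entered 1 fit in limma 3.58.1 under R 4.3.3 (eBayes with intensity trend, two-sided), and Benjamini-Hochberg adjustment ran over all 27018. The brightest probe set that names a gene alone stood for that gene. All receptors are named, and of each other list up to 4 genes that passed, by size of change. Fasn, Scd1, Apoe and the 4 adipocyte markers did not pass and were named besides, the first 3 after their values were seen. The members and lists were chosen with earlier results of these data known. The test was tried on simulated data. Alternatives changed the constant, the filter, the scaling, the error model and the probe set rule, or omitted an array. Precision is limited by having 3 arrays per genotype. Same-numbered arrays deviated from their genotype means with correlations of 0.07, -0.08 and -0.02. With 3 arrays per genotype such values cannot settle whether replicate numbers pair the samples, and the main test was unpaired. Ratios were tested with SciPy 1.17.1 and plots drawn with matplotlib 3.10.9 in Python 3.11.15.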

Additional observations from a re-analysis of the deposited data

How the results depend on the processing

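Of the 9 receptor genes called, 4 were called without the intensity trend, 1 higher and 3 lower, with 7 member probe sets in place of 16 and 16 genes of the coregulator, ligand and target lists in place of 29. With an array left out, 3 to 7 receptor genes were called, 1 to 3 higher and 2 to 4 lower, with 8 to 13 member probe sets and 19 to 30 list genes. The median difference of the receptors, 0.10, was -0.050 with arrays scaled to a common median and 0.04 to 0.15 with an array left out. The count over all genes also moved, from 13.4% to 6.56% without the intensity trend, 7.10% with no filter, where 45037 probe sets share the adjustment, and 7.55% to 14.3% with an array left out. The replicate block kept the count at 9 receptor genes, and whether the replicate numbers pair the samples was not settled. Of the 20 receptor genes not called, 10 changed sign under at least 1 of the 17 alternatives, reaching 0.29 at most, so no direction is read from them. The causes of these shifts were not tested. Restricting the receptors to those with both genotype means above the filter, an alternative chosen after seeing the data, gave 8 called, 3 higher and 5 lower. Vdr has no value with the filter at the 60th percentile or without transgenic 2. Signals near the added 16 units, as for Vdr in wild-type muscle, limit what a fold change can show.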
